A study of Mus musculus with 2 samples.

Results

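The genes described are 10 whose transcripts mark regulatory T cells: Foxp3, Ikzf2, Ctla4, Tnfrsf18, Tnfrsf4, Lrrc32, Izumo1r, Itgae, Il10 and Ebi3. They were chosen by name, and all 10 have a row among the 28482 genes of the count matrix. The cells are labelled CD45+ (leukocytes and microglia) from spinal cord, in C57BL/6 mice with experimental autoimmune encephalomyelitis (EAE, a mouse model of multiple sclerosis), taken on day 15 after induction; sex and age were not in the labels used. The untreated group was 2 mice with EAE and no inhibitor, and the inhibitor group was 2 mice with EAE that received an inhibitor; its name, target and dose were not in the labels used. The series title also names STAP-1 mice, but the labels of these 4 mice carry no such allele, and both groups share strain, tissue and disease induction. Cells of the 4 mice were marked with antibody hashtags, pooled and run together on 1 BD Rhapsody capture.

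After filtering, 19256 cells were kept, between 4304 and 5462 per mouse. The summed counts per mouse were between 48245152 and 61683145, and the median count per cell was between 8173 and 8547. The 24 clusters were made without the 10 genes, so a cell's place in a T cell cluster did not depend on them; cell types named here resemble that type by marker genes. T cells were then divided by Foxp3 alone: 609 T cells held at least 1 Foxp3 count, 6537 T cells held none, and 12110 cells lay in clusters of other types. The 3 classes are called Foxp3-positive T cells, other T cells and non-T cells. The median count per cell was 9685 in Foxp3-positive and 6988 in other T cells, so a gene was easier to detect in the former. Neutrophils made up 24.6% and 19.4% of the untreated and 63.0% and 37.7% of the inhibitor-treated mice's cells.

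As background, regulatory T cells are CD4 T cells that restrain other lymphocytes, and in EAE they limit the inflammation of the spinal cord. Foxp3 is the transcription factor that defines the lineage, and Ikzf2 (Helios) is a zinc finger factor found in a large part of it. Ctla4 competes for the costimulatory ligands CD80 and CD86, Tnfrsf18 (GITR) and Tnfrsf4 (OX40) are costimulatory receptors of the TNF receptor family, and Izumo1r is folate receptor 4. Lrrc32 (GARP) holds latent TGF-beta at the cell surface, Itgae (CD103) is the integrin chain that binds E-cadherin, Il10 is a suppressive cytokine, and Ebi3 is a subunit shared by IL-27 and IL-35. Activated conventional T cells also use several of these genes, Ctla4, Tnfrsf18 and Tnfrsf4 among them.

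Promoter stretches are shown for Foxp3, Ctla4 and Tnfrsf18, the 3 of 7 stretches, from 6 genes, that held a match to a motif searched. They are the 250 bases before the start of transcription from RefSeq (GRCm38.p6), which held an entry for 6 of the 10 genes. Each is written 5′ to 3′ on the strand of the gene, and capitals mark GGAAAA, the core bound by NFAT factors, in its reverse form TTTTCC.
Foxp3, second of its 2 starts, chrX:7580233-7580482, plus strand: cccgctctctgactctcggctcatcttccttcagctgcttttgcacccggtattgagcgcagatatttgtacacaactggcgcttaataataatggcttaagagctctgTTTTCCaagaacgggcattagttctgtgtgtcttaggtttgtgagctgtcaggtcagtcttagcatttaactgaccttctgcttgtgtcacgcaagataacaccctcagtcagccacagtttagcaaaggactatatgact
Ctla4, chr1:60908775-60909024, plus strand: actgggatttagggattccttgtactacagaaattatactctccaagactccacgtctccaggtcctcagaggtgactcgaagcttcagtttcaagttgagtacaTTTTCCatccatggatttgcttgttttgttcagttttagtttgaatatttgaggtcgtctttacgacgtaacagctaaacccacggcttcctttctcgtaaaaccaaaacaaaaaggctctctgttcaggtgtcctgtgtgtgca
Tnfrsf18, chr4:156026072-156026321, plus strand: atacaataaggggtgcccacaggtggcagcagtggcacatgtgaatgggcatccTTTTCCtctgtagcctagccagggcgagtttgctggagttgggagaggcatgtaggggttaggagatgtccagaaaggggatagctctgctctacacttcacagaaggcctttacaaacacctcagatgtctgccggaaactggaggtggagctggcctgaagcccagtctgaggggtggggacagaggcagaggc
The match begins at base 110 in Foxp3, base 106 in Ctla4 and base 55 in Tnfrsf18, counted from the 5′ end. The stretches of Tnfrsf4, Izumo1r, Ebi3 and the first Foxp3 start had none. GGAAAA was found on either strand in 20.4% of 32851 promoter stretches of this length. The other 3 motifs searched on both strands, TGTTTAC (forkhead factors, 3.17% of promoters), TGANTCA (AP-1, 6.75%) and an NF-kB motif (1.41%), had no match in any of the 7 stretches of the 6 genes. A match in this window is a description of its letters and not evidence of binding.

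Foxp3 lies at chrX:7573644-7595245 (GRCm38, plus strand). Its level, as CPM (a gene's count per 1000000 counts summed over the class), was 611 and 667 CPM in Foxp3-positive T cells without inhibitor and 708 and 493 CPM in those with it. The levels of the 2 groups overlapped in this class, which holds only cells with a Foxp3 count. By the rule that made the classes, Foxp3 was at 0 in other T cells, so its difference between them was not tested. The Foxp3-positive T cells held 86.1% of the 6391 Foxp3 counts in kept cells, and non-T cells held 13.9%. Of the counts in non-T cells, 41.8% lay in microglia-like and 31.8% in other dendritic-like cells, whose 16 T cell markers summed to 1917 and 1363 CPM, against 163 CPM in neutrophil-like cells. The part of T cell RNA or of mixed droplets in these counts was not tested. A Foxp3 count was found in 1.34% of neutrophil-like cells and 1.59% of NK-like cells, at median depths of 8944 and 8046 counts. Whether detections at this level are background was not tested either. The gene overlaps Flicr, Ppp1r3f and Ccdc22, and whether the authors counted by strand was not stated.

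Foxp3-positive cells were 8.87% of the T cells of untreated replicate 1 and 9.94% of those of untreated replicate 2. They were 6.63% and 7.27% of the T cells of inhibitor replicates 1 and 2. The mean was 9.40% ± 0.76 (SD, n = 2) untreated and 6.95% ± 0.45 (SD, n = 2) with inhibitor, and the groups did not overlap. The exact two-sided permutation p was 0.3333, the smallest that 2 mice against 2 can give, so the design could not pass a threshold of 0.05. The 95% Wilson intervals, which cover counting error only, were 7.68% to 10.2%, 8.82% to 11.2%, 5.25% to 8.35% and 6.16% to 8.57% in the same order. Of all kept cells, Foxp3-positive T cells were 3.97% and 5.32% in untreated and 1.21% and 2.63% in inhibitor-treated mice, a share that also moves with the neutrophils. Fewer regulatory cells and less Foxp3 RNA per cell cannot be told apart from a share of cells with a count. The regulatory T cell-like cluster, formed without the 10 genes, was 5.34% and 5.88% of T cells in untreated and 3.82% and 4.47% in treated mice, and these groups did not overlap either. Among CD8 T cell-like cells the Foxp3-positive share went the other way, at 2.91% and 2.25% untreated and 4.60% and 4.05% treated, from 5 to 11 cells per mouse.

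**Figure D1:**
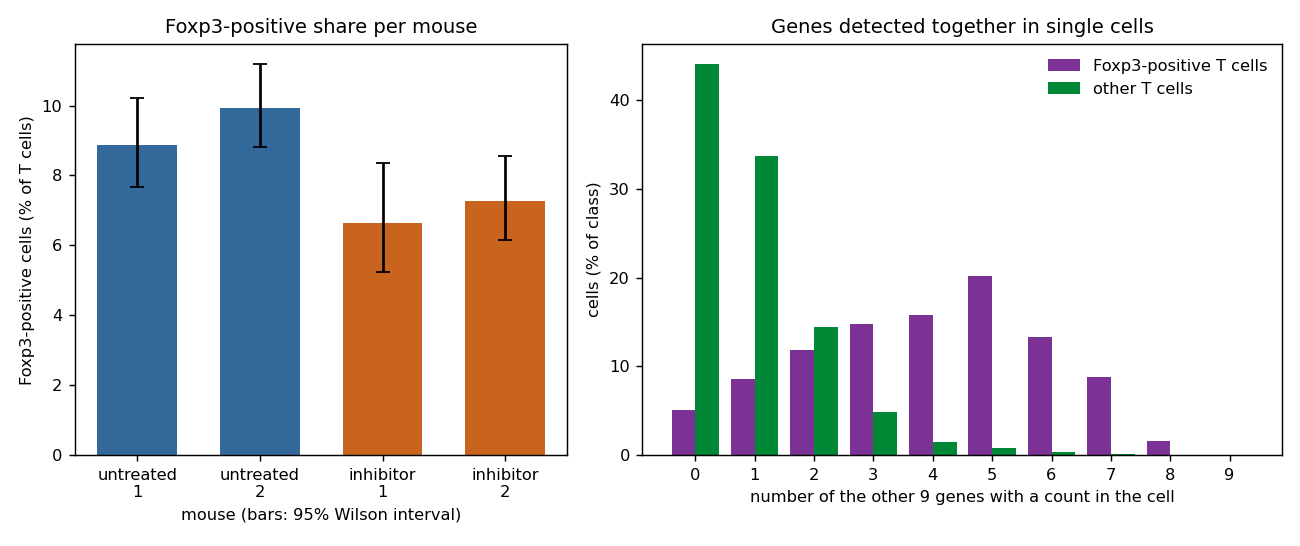
Left: Foxp3-positive cells as a percentage of T cells in each mouse, with 95% Wilson intervals of counting error as bars. Both untreated mice (8.87% and 9.94%) sit above both inhibitor-treated mice (6.63% and 7.27%). Right: percentage of Foxp3-positive and other T cells by the number of the other 9 genes with a count in the cell. The Foxp3-positive cells peak at 5 genes and the other T cells at 0.

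The other 9 genes were all higher in Foxp3-positive than in other T cells, by 1.79 to 3.89 on the log2 scale, and in each gene the lowest of the 4 mice's values in the former lay above the highest in the latter. The comparison was edgeR's quasi-likelihood test on counts summed per class and mouse, with the mouse as a block and Benjamini-Hochberg adjusted p-values over 14190 genes. Of these, 909 passed a threshold of 0.05, which is 6.41% of the genes tested; 429 were higher (3.02%) and 480 lower (3.38%). The median log2 fold was 2.82 over the 9 genes and -0.05 over all genes tested. Every one of the 9 adjusted p-values was between 1.02e-07 and 1.30e-05.

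Ikzf2 (chr1:69531214-69687245, minus strand) stood at 377, 455, 335 and 351 CPM in Foxp3-positive T cells of untreated replicates 1 and 2 and inhibitor replicates 1 and 2. In other T cells of the same mice it stood at 82.8, 66.3, 63.5 and 43.0 CPM. The log2 fold of 2.54 ± 0.13 (SE) is 5.81-fold. Other T cells still held 41.0% of all Ikzf2 counts, since they were the larger class.

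Among the receptors, Ctla4 (chr1:60887000-60915832, plus strand) was at 447, 539, 409 and 393 CPM in Foxp3-positive and at 68.1, 90.3, 78.4 and 84.9 CPM in other T cells, in the same order of mice. Its log2 fold was 2.41 ± 0.11. Tnfrsf18 was at 665, 590, 615 and 791 CPM against 208, 174, 160 and 194 CPM, the smallest log2 fold of the 9 at 1.79 ± 0.09. Other T cells held 50.4% and non-T cells 22.4% of its 21678 counts. Tnfrsf4 was at 608, 715, 956 and 821 CPM against 123, 110, 88.5 and 124 CPM, a log2 fold of 2.72 ± 0.14. The latter pair are neighbours on chromosome 4, Tnfrsf4 at chr4:156013843-156016612 and Tnfrsf18 at chr4:156026164-156028895, both on the plus strand. Izumo1r (chr9:14885814-14903949, minus strand) was at 336, 351, 347 and 440 CPM against 47.7, 43.6, 44.9 and 28.2 CPM, a log2 fold of 3.12 ± 0.17. In each of these receptors the lowest Foxp3-positive value was above 2 times the highest value in other T cells.

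Of the genes for surface TGF-beta and tissue retention, Lrrc32 (chr7:98489283-98502181, plus strand) was at 78.5, 67.5, 79.9 and 65.1 CPM in Foxp3-positive T cells. It was at 6.57, 5.75, 7.92 and 2.53 CPM in other T cells, and its log2 fold was 3.71 ± 0.26. Itgae (chr11:73090583-73147446, plus strand) was at 92.4, 110, 132 and 61.6 CPM against 10.2, 17.6, 7.65 and 8.999 CPM, a log2 fold of 3.07 ± 0.24. Haspin lies within the Itgae gene on the other strand. Although both genes marked the class, a count was found in 27% or fewer of its cells: in 19.7% to 26.9% for Lrrc32 and in 18.7% to 25.8% for Itgae over the 4 mice.

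Il10 (chr1:131019845-131024974, plus strand) had 36.7 and 167 CPM in Foxp3-positive T cells without inhibitor, and 81.3 and 61.0 CPM with it. In other T cells it was at 3.60, 9.92, 5.54 and 2.65 CPM, and the log2 fold between the classes was 3.89 ± 0.23. Untreated replicate 2 was the highest in both classes. Foxp3-positive T cells, 609 of 19256 cells, held 63.0% of all Il10 counts. Ebi3 (chr17:55952640-55957022, plus strand) was at 70.2, 47.2, 93.7 and 41.4 CPM against 8.24, 9.14, 9.501 and 5.79 CPM in other T cells, a log2 fold of 2.82 ± 0.24. With T cells taken as cells with at least 2 of 6 T cell receptor and CD3 transcripts, in place of clusters, the log2 fold of Ebi3 was 0.73 (adjusted p = 0.0698); the other 8 genes passed there too.

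**Figure D2:**
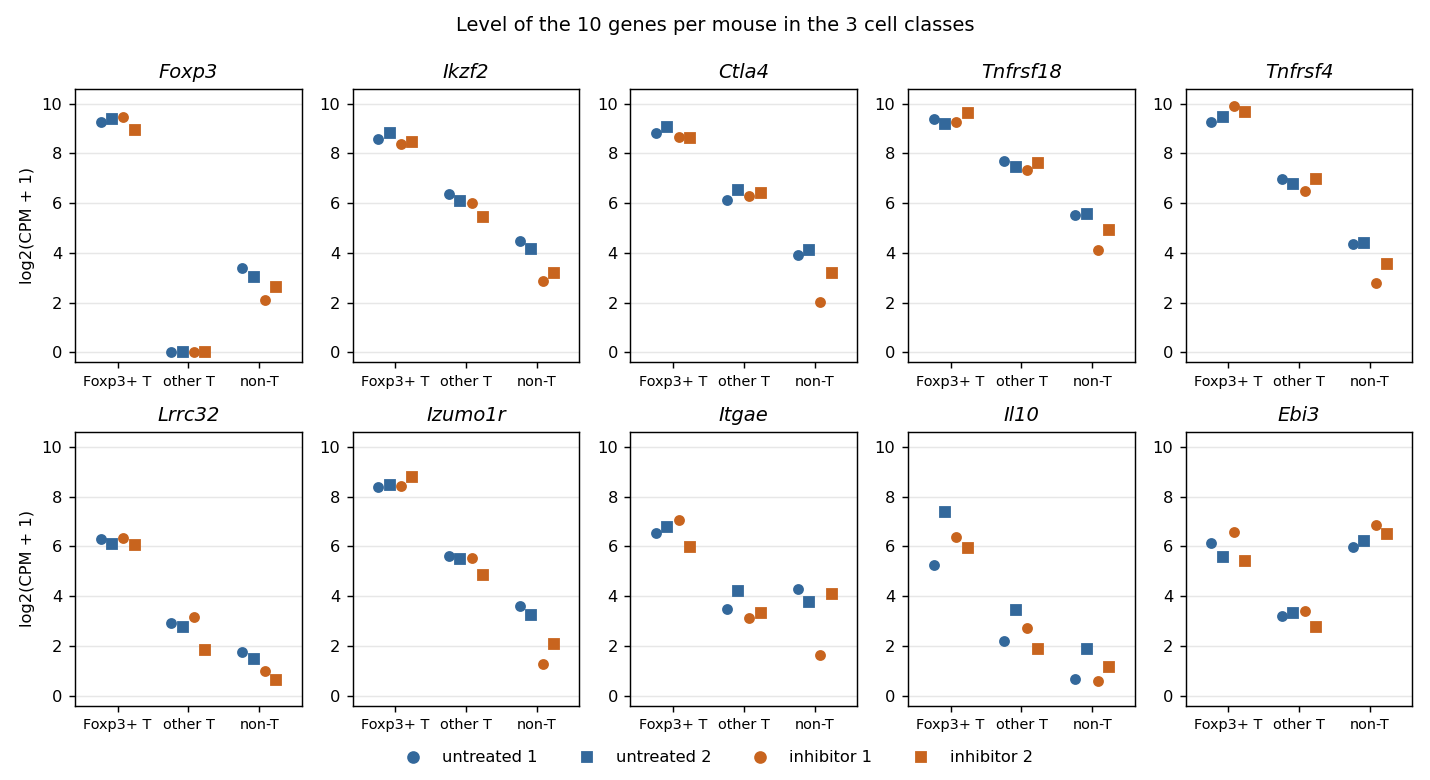
Level of each gene as log2(CPM + 1), per mouse (symbols) in Foxp3-positive T cells, other T cells and non-T cells. Each of the 9 genes other than Foxp3, which defines the classes and is at 0 in other T cells by rule, is higher in Foxp3-positive than in other T cells in every mouse; Ebi3 in non-T cells reaches the level of Foxp3-positive T cells.

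The classes were also compared at equal depth. After each cell was thinned to 2000 counts, Tnfrsf18 was found in 50.3% to 64.6% of Foxp3-positive T cells over the 4 mice and in 15.6% to 19.96% of other T cells. Ctla4 was found in 36.4% to 44.8% against 8.19% to 10.8%, and Izumo1r in 31.0% to 40.3% against 3.20% to 4.84%. Without thinning, Ctla4 was found in 56.1% to 69.2% of Foxp3-positive and 17.1% to 21.3% of other T cells. Il10 after thinning was in 4.09% to 14.9% against 0.181% to 0.912%. For each of the 9 genes the 2 ranges stayed apart; in other T cells Il10, Ebi3 and Lrrc32 were each found in under 1% of cells. The classes here were those of the full counts. Fits given below as at equal depth split the T cells again by the thinned Foxp3 count. Between 56.15% and 66.67% of a mouse's Foxp3-positive T cells kept such a count, and the rest joined the other T cells.

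The genes were also found together in single cells. The median Foxp3-positive T cell held counts of 4 of the other 9 genes, and the median of other T cells was 1, or 0 in inhibitor replicate 1. At least 4 were found in 56.1%, 64.1%, 57.6% and 57.7% of the Foxp3-positive cells of the 4 mice, against 2.33%, 3.65%, 2.26% and 2.77% of other T cells. Thinned to 2000 counts, these shares over all mice were 31.6% and 1.03%. None of the 9 was found in 5.09% of Foxp3-positive and 44.1% of other T cells. Within the Foxp3-positive class, Itgae was found in 43.3% of the 90 cells with an Il10 count and in 18.1% of the 519 without, at median depths of 10691 and 9522 counts. Lrrc32 did not follow that pattern, with 20% and 22.5% of the same cells. These shares pool cells of 4 mice and carry no test.

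The Foxp3 rule and the clusters drew different lines. A cluster of 364 cells, made without the 10 genes, was led by Ncmap, Neb, Klrg1, Tnfrsf9, Il2ra and Ikzf4 and is called regulatory T cell-like. Its name also used Foxp3 and 6 more of the 10 genes as markers, so their levels in it are a description. A Foxp3 count was found in 72.8% of its cells. It held 43.5% of the Foxp3-positive T cells, the CD4 T cell-like clusters held 45.8%, and CD8 T cell-like, gamma-delta T cell-like and T cells without subtype held 5.75%, 3.45% and 1.48%. Among CD8 T cell-like cells 3.44% had a Foxp3 count, and among gamma-delta T cell-like cells 4.30%, against 1.34% of neutrophil-like cells. Other non-T groups were as high or higher: 4.32% of microglia-like, 7.625% of other dendritic-like and 4.98% of progenitor-like cells. Median depths were 7697 and 7070 counts in the CD8 and gamma-delta groups, and 9536, 16134 and 21126 in these non-T groups. The 99 cells of the regulatory T cell-like cluster without a Foxp3 count had Ikzf2 at 604, Ctla4 at 526, Tnfrsf18 at 1009 and Tnfrsf4 at 974 CPM. The 265 cells with a Foxp3 count in that cluster had 622, 614, 989 and 1001 CPM. The 344 Foxp3-positive T cells outside it had lower levels, 274 CPM of Ikzf2, 387 of Ctla4, 476 of Tnfrsf18 and 572 of Tnfrsf4, and the 6438 cells with neither feature had 56.1, 75.0, 175 and 102 CPM. Itgae was at 193 CPM in the cluster and 41.9 CPM outside it, and Il10 at 197 and 40.5 CPM. With the cluster left out of both classes, a comparison added after the data were seen, 548 genes passed, and all 9 genes were among those higher, with log2 folds such as 2.13 for Ikzf2, 2.30 for Itgae and 3.49 for Il10.

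Each of the other 9 genes had its lowest CPM in cells with a single Foxp3 count. Cells with a single Foxp3 count (133 cells) had Tnfrsf4 at 207, Ctla4 at 157 and Izumo1r at 155 CPM. Those with 2 to 5 counts (163 cells) had 748, 530 and 439 CPM, and those with more than 5 had 852, 531 and 400 CPM. The median depths in this order were 8238, 7295 and 12181 counts. Tnfrsf4 was found in 29.3%, 62.6% and 77.3% of these cells, and Izumo1r in 24.8%, 54.0% and 69.65%. With the class limited to cells of at least 2 Foxp3 counts, all 9 genes passed and 911 genes were called.

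Of 30 other genes of regulatory T cells, all tested, 26 were higher in Foxp3-positive T cells, 0 were lower and 4 (Il2rb, Entpd1, Nrp1 and Penk) did not pass. The list's median log2 fold was 1.49, beside -0.05 over all genes. Of the list, 14 were higher with the regulatory T cell-like cluster left out of both classes, and 18 of 29 tested at equal depth. Il2ra, the high-affinity chain of the interleukin 2 receptor, was at 358 to 563 CPM against 47.8 to 84.0 CPM (log2 fold 2.75 ± 0.10, adjusted p = 1.32e-08). Ikzf4 (Eos), a partner of Foxp3, was at 68.0 to 114 CPM against 8.63 to 15.0 CPM (2.89 ± 0.24, adjusted p = 1.04e-05). Klrg1, a receptor of terminally differentiated lymphocytes, rose by 2.93 ± 0.23 (adjusted p = 7.42e-06). Gpr83 rose by 5.76 ± 0.64 from 0 to 0.470 CPM in other T cells to 8.27 to 19.7 CPM. Itgb8, an integrin chain that activates TGF-beta, rose by 3.28 ± 0.47, and Plagl1, with 1.82 to 4.58 CPM, by 3.82 ± 1.01 (adjusted p = 0.03999). The calls of Plagl1 and Itgb8 were lost outside the cluster (adjusted p = 0.138 and 0.123), and that of Plagl1 also without untreated replicate 1 (0.154) or 2 (0.211). The list was chosen with these data known and is no independent evidence.

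Of 19 ligands, subunits and other partners of the 10 genes, 15 were tested, 2 were higher, 1 was lower and 12 did not pass, with a median log2 fold of -0.03. Cd80, a ligand of Ctla4, was at 12.1 to 24.8 CPM against 3.60 to 6.41 CPM (log2 fold 1.82 ± 0.37, adjusted p = 0.00907). Il6st (gp130), a receptor chain for IL-27, rose by 0.99 ± 0.26 (adjusted p = 0.0362). Il12rb2, a receptor chain for IL-12, fell by 1.61 on the log2 scale (SE 0.37, adjusted p = 0.0185). None of the 3 passed when either untreated mouse was left out (adjusted p = 0.0617 to 0.205), nor did Il6st without inhibitor replicate 1 (0.0563) or 2 (0.0644) or Il12rb2 without inhibitor replicate 2 (0.0951). Il12a and Il27, whose products pair with Ebi3, and the ligands Tnfsf4 and Tnfsf18 were too low in T cells to be tested.

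Of 18 genes of conventional T cells, 14 were lower in Foxp3-positive T cells and 0 higher, with a median log2 fold of -1.30. The count was 8 without untreated replicate 2, 8 with the regulatory T cell-like cluster left out, and 8 of 15 tested at equal depth. Cd40lg, the helper ligand CD40L, was at 9.82 to 37.2 CPM against 76.7 to 97.3 CPM (fell by 1.93, SE 0.25, adjusted p = 4.27e-04). Themis, a T cell receptor signalling protein, fell by 1.54 (SE 0.18). The cytokine genes Il2 and Csf2 fell by 1.96 (SE 0.40) and 2.25 (SE 0.50), Tnfsf8 (CD30 ligand) by 1.58 (SE 0.32) and Dapl1 by 3.38 (SE 0.86). Il2, Csf2, Tnfsf8 and Dapl1 did not pass without untreated replicate 2 (adjusted p = 0.0793 to 0.142), and the first 3 did not pass without untreated replicate 1 either (0.0851 to 0.174), nor Dapl1 without inhibitor replicate 2 (0.117). Il21, Tbx21 and Igfbp4 were among the 4 that did not pass.

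Markers of other cells also differed between the classes; the single genes named here were chosen after their values were seen. The 15 B lineage markers summed to 558 to 732 CPM in Foxp3-positive and 94.9 to 154 CPM in other T cells, of which Ighm alone made up 478 to 566 and 71.9 to 107 CPM. Igkc was also higher, at 11.02 to 136 against 6.53 to 18.3 CPM (log2 fold 2.40 ± 0.54, adjusted p = 0.0166). Cd79a and Ms4a1 were at 4.73 to 8.27 and 0 to 4.29 CPM in Foxp3-positive T cells and did not pass (adjusted p = 0.8815 and 0.7838), and Jchain was at 0 in both classes. The 16 other dendritic cell markers summed to 876 to 1120 CPM in Foxp3-positive T cells of untreated mice and to 347 to 585 CPM in those of treated mice, against 205 to 320 CPM in other T cells. Of these, the antigen presentation genes H2-Aa (log2 fold 2.46 ± 0.20), H2-Ab1 (1.86 ± 0.22) and Cd74 (1.25 ± 0.13) were higher in Foxp3-positive T cells (adjusted p = 1.04e-05 to 2.29e-04), and Ccl22 was at 0 in that class. The 13 microglia markers were at 443 to 759 CPM and 178 to 186 CPM in the same order, and at 201 to 383 CPM in other T cells. The 10 NK markers were lower in the Foxp3-positive class, at 61.2 to 354 CPM, than in other T cells, at 329 to 560 CPM. In other dendritic-like cells, Ikzf2 was at 27.7, Ctla4 at 41.9, Tnfrsf18 at 93.8, Tnfrsf4 at 51.1 and Itgae at 148 CPM. Lrrc32, Izumo1r, Il10 and Ebi3 were at 4.85, 18.8, 5.715 and 49.9 CPM there. In microglia-like cells the 9 genes ran from 1.91 CPM (Il10) to 56.3 CPM (Tnfrsf18). A dendritic-like cluster of 44 cells led by Ccl22 had Tnfrsf4 at 251, Tnfrsf18 at 243 and Il10 at 36.85 CPM. The part of these other cells in the results was not tested. For Igkc, H2-Aa and H2-Ab1 the smallest count above 0 that any cell held was 6, and for Cd74 it was 1. A deeper cell reaches 6 counts more easily, and the Foxp3-positive class was the deeper. The lowest values of Igkc, H2-Aa and H2-Ab1 in Foxp3-positive T cells, all in inhibitor replicate 1, come from few cells. What this cut adds to their folds was not tested.

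Across 21 clusters of at least 100 cells, the 5 genes most like Foxp3 in log2(CPM + 1) were Lrrc32 (r = 0.951), Izumo1r (0.917), Ikzf4 (0.916), Tnfrsf4 (0.911) and Ctla4 (0.910), of 19977 genes ranked. Il10 came next (rank 6, r = 0.909), then Tnfrsf18 (rank 61, 0.809), Itgae (rank 186, 0.747) and Ikzf2 (rank 218, 0.738). Ebi3 had no such likeness (rank 14035, r = -0.0075). The clusters share mice and library, and r is given as a description.

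The genes with lower ranks had high levels in other cells. Ikzf2 reached 242, 198, 243 and 197 CPM in a cluster of 553 T cells without subtype, led by Klra6, Klra1 and Xcl1, where Foxp3 was at 1.68 CPM and Il10 at 0. In gamma-delta T cell-like cells it had 115 and 116 CPM in the untreated pair and 70.6 and 73.8 CPM in the treated pair, with 53 to 207 cells each. Tnfrsf18 was at 139, 183, 129 and 176 CPM in NK-like cells, in which Tnfrsf4 was at 10.8 and Foxp3 at 2.05 CPM. Itgae was at 148, 138, 66.8 and 181 CPM in other dendritic-like cells, which held 81.4% of its counts in non-T cells, and inhibitor replicate 1 was the low mouse. It was at 42.9, 64.4, 28.9 and 18.4 CPM in gamma-delta T cell-like cells. In the regulatory T cell-like cluster Ikzf2 was at 558 to 694 CPM and Tnfrsf18 at 776 to 1209 CPM, above these values in every mouse. Itgae was there at 150, 235, 211 and 127 CPM, so in inhibitor replicate 2 it was lower than in other dendritic-like cells, and in untreated replicate 1 the levels were close.

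The genes also differed between CD4 T cell-like clusters. A cluster of 578 cells led by Ccl1, Nrgn and Rgs16 had Tnfrsf4 at 467 and Tnfrsf18 at 339 CPM with Foxp3 at 42.8 CPM. The largest CD4 cluster (2473 cells, led by Cxcr6) had 93.4 and 168 CPM with Foxp3 at 12.7 CPM. A cluster of 1384 cells led by Tcf7 had Foxp3 at 78.4, Izumo1r at 147 and Lrrc32 at 30.2 CPM. A cluster of 289 cells led by cell cycle genes such as Top2a and Birc5 had Ctla4 at 235 and Foxp3 at 144 CPM, and 21.8% of its cells had a Foxp3 count, at a median of 20199 counts per cell.

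Ebi3 had another source than the rest. Non-T cells held 93.4% of its counts, and neutrophil-like cells held 88.0% of those. Neutrophil-like cells had Ebi3 at 124 and 140 CPM without and at 145 and 144 CPM with inhibitor, and 28.2% to 38.2% of these cells had a count. The other dendritic-like cells had 32.6, 42.8, 58.5 and 69.0 CPM, and within them a cluster of 44 cells led by Ccl22, Fscn1 and Ccr7 had 193 CPM. The 16 neutrophil markers summed to 413 to 787 CPM in Foxp3-positive and 775 to 855 CPM in other T cells.

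**Figure D3:**
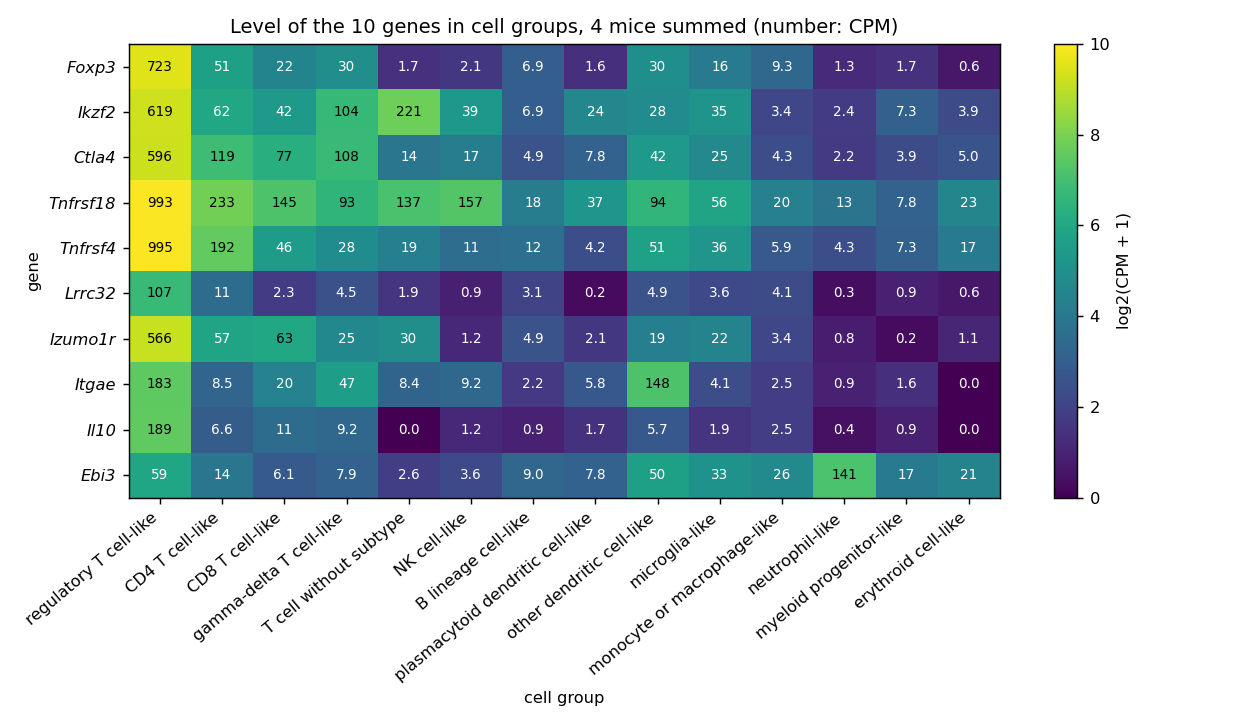
Level of the 10 genes (rows) in groups of clusters (columns), 4 mice summed; colour is log2(CPM + 1) and the number in each cell is CPM. The regulatory T cell-like column is the highest for 9 genes, while Ebi3 is highest in neutrophil-like cells at 141 CPM; below the regulatory T cell-like column, Ikzf2 is next in T cells without subtype, Tnfrsf18 in CD4 T cell-like (233 CPM) and then NK-like cells (157 CPM), and Itgae in other dendritic-like cells.

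In Foxp3-positive T cells, no gene passed the comparison of inhibitor-treated with untreated mice: 0 of 11202 genes tested (0%) by edgeR's quasi-likelihood test, with 402 at an unadjusted p under 0.05, and 4 by DESeq2. None of the 10 genes passed (adjusted p = 0.9993 for each), and their log2 folds ran from -0.52 ± 0.58 for Il10 to 0.43 ± 0.15 for Tnfrsf4. Tnfrsf4 was the 1 gene of the 10 with an unadjusted p under 0.05 (0.0213): its levels of 608 and 715 CPM untreated and 956 and 821 CPM treated did not overlap. Nor did those of Ikzf2 (377 and 455 against 335 and 351 CPM) and Ctla4 (447 and 539 against 409 and 393 CPM), with log2 folds of -0.27 ± 0.18 and -0.29 ± 0.17. In the rest of the 10 genes the groups overlapped. An exact permutation test of 2 mice against 2 gives no p below 0.3333, so non-overlap alone passes no threshold. The share of all genes tested without overlap is not given here. Ikzf2 was found in 70.8% and 67.4% of the untreated and 54.6% and 58.5% of the treated mice's Foxp3-positive cells. Foxp3 itself had a log2 fold of -0.09 ± 0.19. The class holds only cells with a Foxp3 count, so this fold does not measure its change over all T cells. In all T cells, Foxp3 was at 91.9 and 103 CPM untreated and at 61.9 and 53.7 CPM treated. That difference was not tested. Over the 10 genes 4 folds were above and 6 below 0, with a median of -0.05 beside -0.01 over all genes. The number of calls rested on single mice: 621 without inhibitor replicate 2 (130 cells), 59 without inhibitor replicate 1 (66 cells) and 3 without untreated replicate 2, with none of the 10 genes among them. In such fits the lone mouse of a group is assumed to vary like the other group.

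In other T cells, 0 of 16278 genes passed (0%), with 662 at an unadjusted p under 0.05 and 6 called by DESeq2. Of the 9 genes with counts there, 8 folds were below 0, with a median of -0.31 beside -0.003 over all genes tested. Ikzf2 was at 82.8 and 66.3 CPM untreated and 63.5 and 43.0 CPM treated (log2 fold -0.50 ± 0.19, unadjusted p = 0.0297, adjusted p = 0.9997). Itgae was at 10.2 and 17.6 against 7.65 and 8.999 CPM (-0.73 ± 0.30, unadjusted p = 0.0397, adjusted p = 0.9997). The groups did not overlap in these genes and overlapped in the rest of the 9. How many of all genes tested here had no overlap is not given, so non-overlap is no result about these genes. Il10 had the lowest fold at -0.79 ± 0.52 and Ctla4 the highest at 0.04 ± 0.16, and in both the groups overlapped. Between 3 and 12 genes passed when a mouse was left out, none of them among the 9. The inhibitor and untreated groups of both T cell classes are the same mice, so the class results are not independent.

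The inhibitor's effect was then compared between Foxp3-positive and other T cells as an interaction. Of 14190 genes, 2 passed (0.0141%), S100a8 and S100a9, which are neutrophil genes outside the 10, named after their values were seen; their untreated counts in Foxp3-positive T cells came from at most 3 cells per mouse. For the 9 genes tested the difference in log2 fold ran from -0.36 ± 0.20 for Ctla4 to 0.56 ± 0.29 for Izumo1r, with 8 above 0 and adjusted p = 1 for each. The median difference was 0.44 over the 9 genes and -0.05 over all genes tested. Tnfrsf4 had the smallest unadjusted p (0.0268) at 0.56 ± 0.22. Without inhibitor replicate 2 the difference was 0.90 for Tnfrsf4 (adjusted p = 0.00276, among 391 genes called), and without inhibitor replicate 1 it was 1.04 for Izumo1r (adjusted p = 0.0217, among 49 genes called). Between 8 and 11 genes passed without an untreated mouse.

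In non-T cells, 0 of 19445 genes passed (0%), with 2056 at an unadjusted p under 0.05 and 147 called by DESeq2, none of them among the 10. The folds of 9 genes were below 0 and that of Ebi3 was above it, with adjusted p = 0.4547 to 0.7644. The median log2 fold was -0.94 over the 10 genes and -0.03 over all genes tested. Ebi3 was at 62.7 and 72.6 CPM untreated and 116 and 90.0 CPM treated (log2 fold 0.83 ± 0.25). Izumo1r was at 11.2 and 8.47 against 1.41 and 3.26 CPM (-1.90 ± 0.36), Ctla4 at 14.3 and 16.5 against 3.04 and 8.12 CPM (-1.30 ± 0.39), and Ikzf2 at 21.2 and 16.9 against 6.39 and 8.22 CPM (-1.17 ± 0.20). The groups did not overlap in these genes. Lrrc32 (-1.15 ± 0.44), Tnfrsf4 (-1.08 ± 0.25), Tnfrsf18 (-0.81 ± 0.23) and Foxp3 (-0.78 ± 0.26) lay between them and 0, also without overlap. In Itgae and Il10 the groups overlapped. Here too non-overlap alone gives an exact permutation p no smaller than 0.3333. The share of all genes tested in non-T cells without overlap is not given either, so non-overlap is no result about the 10 genes. The makeup of the class moved with these values. Within neutrophil-like clusters alone, added after the data were seen, Ebi3 had a log2 fold of 0.11, Izumo1r of -0.58, Ctla4 of 0.14 and Ikzf2 of -0.34. Among non-T cells without neutrophil-like, B lineage-like, progenitor-like and erythroid-like clusters, also added, they were 0.47, -1.42, -1.11 and -0.74; none passed in either. Without inhibitor replicate 2, the mouse with fewer neutrophils of the treated pair, 1251 genes passed, of the 10 Ebi3 higher and 6 lower.

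**Figure D4:**
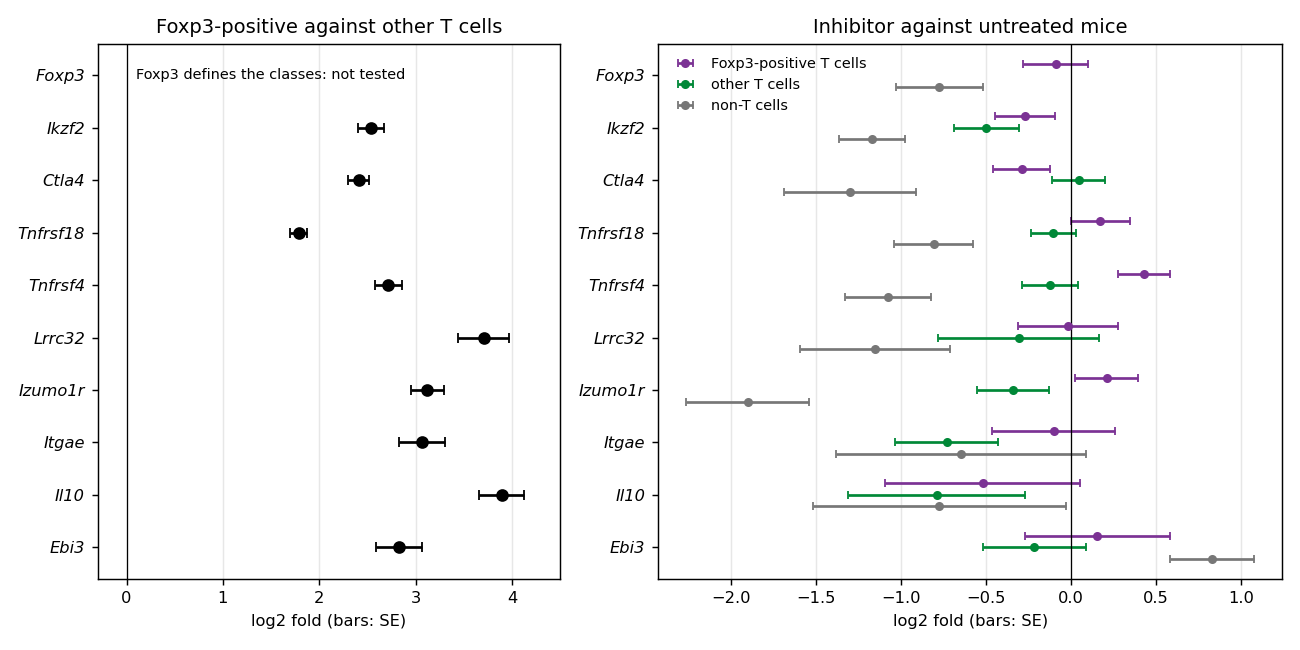
Left: log2 fold of each gene between Foxp3-positive and other T cells, with SE; the 9 tested genes run from 1.79 to 3.89. Right: log2 fold of inhibitor-treated against untreated mice in the 3 classes, with SE; none passes the threshold, and in non-T cells 9 genes are below 0 and Ebi3 is above it.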

How the data were processed

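The deposited matrix holds raw counts per gene and cell, made by the authors from polyA RNA captured on BD Rhapsody beads and amplified by TAS-Seq, per the labels' protocols. Its name also gives a distribution-based error correction and demultiplexing by hashtag, and the build is GRCm38, per the submitters' processing notes. The sources used here name no aligner or counter and leave unsaid if counts are of molecules or reads; the hashtag library was not analysed here. Of 25461 columns, 3943 with more than 1 hashtag were left out, then 1014 cells above 20% mitochondrial counts and 1248 cells scored as same-mouse doublets. The rest were clustered with Leiden (leidenalg 0.10.2) without the 10 genes and mitochondrial genes. Names came from marker lists. Counts were summed per class and mouse and tested with edgeR 4.0.16 in R 4.3.3 (quasi-likelihood, TMM, low counts filtered, Benjamini-Hochberg adjustment over all genes tested), with DESeq2 1.42.0 as an alternative. Fits were also run on simulated counts with the same fixed dispersion for all genes and no differences in cell makeup between mice. That run says nothing of the spread between these mice. Wilson intervals (95%) cover counting error only. The mice are the replicates, 2 per group. The 10 genes and all lists were chosen with earlier results of these data known. Besides the 10 genes, values are given for at most 6 genes of a list, those past the threshold with the largest absolute log2 fold between Foxp3-positive and other T cells; list genes that did not pass or were not tested are named without values. Alternatives were other T cell, Foxp3, doublet, mitochondrial and depth rules, other normalization, filter and estimation settings, a replicate block, and leaving out each mouse. Values of some single genes of the lists are not reported here.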

Additional observations from a re-analysis of the deposited data

Results flagged for a closer look

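In edgeR's interaction test of the inhibitor between Foxp3-positive and other T cells, S100a8 (adjusted p = 0.01601) and S100a9 (adjusted p = 0.01601) passed, and no other gene tested did. The summed counts of S100a8 in Foxp3-positive T cells were 266 and 124 in the untreated mice and 0 and 0 in the treated mice, and in other T cells 957, 1089, 393 and 1009. For S100a9 they were 339, 163, 0 and 0 against 983, 1306, 506 and 902. The smallest count above 0 that any cell held was 110 for S100a8 and 112 for S100a9, so the untreated sums of S100a8 in Foxp3-positive T cells come from at most 2 cells and 1 cell, and those of S100a9 from at most 3 cells and 1 cell. The calls rest on these few cells; both genes are listed at 0 in the treated Foxp3-positive T cells and no fold is given. The call of S100a8 was lost in 6 of the alternatives: T cells by transcripts, doublet calls kept, at least 2 Foxp3 counts, equal depth, CD4 and regulatory clusters, and the other estimation setting.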

How the results depend on the processing

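The 9 genes stayed higher in Foxp3-positive than in other T cells in every setting run, and each passed the threshold except Ebi3 with T cells by transcripts. Beside 909 genes called, that comparison gave 498 at equal depth, 548 outside the regulatory T cell-like cluster, 1410 with no filter on low counts, and 406 to 1170 when a mouse was left out. The inhibitor comparison gave 4 calls by DESeq2, 29 with no filter and 0 to 621 with a mouse left out in Foxp3-positive T cells. It gave 6, 79 and 3 to 12 in other T cells, and 147 by DESeq2 and 0 to 1251 with a mouse left out in non-T cells. With the replicate number as a block, 4 genes were called in Foxp3-positive, 8 in other T cells and 0 in non-T cells, none of the 10 among them. Same-numbered mice share only a number (correlations of deviations -0.022, -0.0082 and -0.075). The interaction gave 0 calls with T cells by transcripts, with doublet calls kept, in CD4 and regulatory clusters (added after seeing the data) and with the other estimation setting. It gave 1 with at least 2 Foxp3 counts and 1 at equal depth, 18 with no filter and 8 to 391 with a mouse left out. For S100a8 and S100a9 the direction reversed with T cells by transcripts (adjusted p = 0.9688 for both) and with doublet calls kept (adjusted p = 1 for both). The log2 fold of Il10 with inhibitor ran from -1.22 to 0.92 in Foxp3-positive and from -1.35 to 0.15 in other T cells with a mouse left out. That of Ctla4 in other T cells ran from -0.15 to 0.27 and was -0.33 with T cells by transcripts, and in neutrophil-like clusters it was 0.14. The lower share of Foxp3-positive cells with inhibitor kept its direction in each setting, by 1.87 to 3.76 percentage points. The cause of these changes was not tested.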
